A study of Mus musculus with 27 samples.

Results

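A set of 9 genes of the histone deacetylase corepressor complexes were followed across mouse embryos cultured to the morula stage. They were Ncor1 of the NCoR complex, Sin3a and Sin3b of the SIN3 complex, Mta1, Mta2, Mta3 and Chd4 of the NuRD complex, and Rcor1 and Rest, which meet in the CoREST complex. The genes were chosen by name, as the NCoR, SIN3, NuRD and CoREST genes of the series, and make up 9 of the 55367 gene rows of the deposited counts. All 9 were measured in all 27 libraries and passed the filter on low counts. The wild-type embryos formed 9 groups of 3 libraries, each library a pool of 15 to 20 embryos harvested at the morula stage. Per the labels and the file headers, 3 groups received an inhibitor in the medium from embryonic day 2.5. These were SAHA at 500 nM and TSA at 50 nM, both hydroxamic acid inhibitors of histone deacetylases, and A485 at 10 uM, an inhibitor of the acetyltransferases p300 and CBP. Their control was the Vehicle group, whose solvent the labels do not name. Another 4 groups were injected with siRNA at embryonic day 0.5, labelled siP300, siKat6a, siKat6b and siComb, with siControl as their control. All 9 groups were harvested at the same embryonic age, later on the day when the inhibitors were added. The time in inhibitor was thus much shorter than the time from injection to harvest. The labels give neither the siRNA doses nor the mixture in siComb, and they name no strain.

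Histone deacetylases have little DNA specificity of their own and act inside corepressor complexes, which bring them to promoters and remove acetyl groups that p300 and related acetyltransferases add. NCoR carries Hdac3 to nuclear receptors, SIN3 is a scaffold for Hdac1 and Hdac2, NuRD couples the same deacetylases to the chromatin remodeller Chd4 through an MTA protein, and CoREST pairs them with the lysine demethylase Kdm1a. REST is the zinc finger protein that brings CoREST and SIN3 to neuronal genes outside neurons. In early mouse embryos the SIN3 and NuRD complexes are known for roles in the passage from the early cleavage programme to the first lineages.

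The widest and the most divided of the 9 patterns were those of the MTA genes, so the promoters of 2 of them are shown, with GC boxes (GGGCGG, or CCGCCC on the other strand) in capitals. Both are taken from RefSeq (GRCm38.p6), run from 250 bases before to 50 bases after a start listed there and lie on the plus strand. Mta1 is at chr12:113098028-113098327 and Mta2 at chr19:8941670-8941969. The Mta2 start used for the window is not the gene start of 8941875 given below.
Mta1: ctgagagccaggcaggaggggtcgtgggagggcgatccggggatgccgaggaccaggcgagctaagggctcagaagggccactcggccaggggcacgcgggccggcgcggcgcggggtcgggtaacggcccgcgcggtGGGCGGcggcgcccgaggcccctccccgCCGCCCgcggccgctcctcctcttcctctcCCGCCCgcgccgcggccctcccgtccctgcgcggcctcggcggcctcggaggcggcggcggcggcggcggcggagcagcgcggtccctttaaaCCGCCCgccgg
Mta2: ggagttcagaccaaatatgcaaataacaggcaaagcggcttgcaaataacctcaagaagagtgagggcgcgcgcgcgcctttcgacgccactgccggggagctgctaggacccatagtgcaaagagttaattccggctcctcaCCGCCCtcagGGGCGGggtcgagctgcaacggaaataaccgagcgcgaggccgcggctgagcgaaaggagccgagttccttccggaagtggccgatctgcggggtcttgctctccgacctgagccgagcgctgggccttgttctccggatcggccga
The Mta1 window held 4 GC boxes and 50 CpG dinucleotides at 81.0% GC, and the Mta2 window held 2 GC boxes and 30 CpG dinucleotides at 61.7% GC. Over all RefSeq promoters of the same length, 35.7% held a GC box, the median GC content was 52.7% and the median number of CpG dinucleotides was 7. These matches are letters in a window and were not measured as sites.

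The series concerns a microRNA, miR-203, whose mature form was also compared with the members. With its seed (bases 2 to 8) in capitals, the RefSeq sequence is as follows.
miR-203-3p: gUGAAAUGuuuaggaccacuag
The match to this seed, CATTTCA, was found in the longest annotated 3′ untranslated region of 0 of the 9 members, against 3361 of 20987 genes (16%). The microRNA lies at chr12:112130927-112130948 on the plus strand (GRCm38.p6). No group analysed here received it, so this is a description of sequence alone.

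Library totals ran from 7557591 to 11988857 gene counts, and no pair of replicates agreed within counting noise (chi-square per degree of freedom 8.35 to 48.9 over 27 pairs). Of 12 markers of the morula, 11 were present in at least some libraries and Sox2 was listed at 0 in all 27 libraries. In the A485 group, 2 of the 12 were at 0 in every library, Sox2 included. The summed level of the 12 markers was 2341 to 2620 CPM in SAHA, 1813 to 1982 CPM in TSA and 645 to 825 CPM in A485, against 3749 to 4066 CPM in Vehicle. It was 2020 to 3022 CPM in siP300 and 2498 to 2970 CPM in siComb, against 4360 to 5048 CPM in siControl. The retroviral MERVL-int row stood at 2181 to 4569 CPM in SAHA and 8393 to 9742 CPM in TSA, against 12.5 to 245 CPM in Vehicle. Mitochondrially encoded genes took 4.94 to 6.99% of counts in siP300 and 4.86 to 5.41% in siComb, against 1.94 to 2.45% in siControl, and 1.61 to 2.16% in SAHA, 2.51 to 3.57% in TSA and 2.36 to 2.62% in A485, against 0.997 to 1.20% in Vehicle. Summed blood and immune markers stood at 81.6 to 191 CPM in siP300 and 122 to 169 CPM in siComb, against 17.5 to 22.2 CPM in siControl. In SAHA they stood at 28.1 to 33.2 CPM, in TSA at 51.9 to 77.1 CPM and in A485 at 37.1 to 67.7 CPM, against 20.8 to 23.7 CPM in Vehicle. Cumulus and granulosa markers summed to 9.63 to 16.7 CPM in siP300 and 7.81 to 13.6 CPM in siComb, against 1.08 to 2.13 CPM in siControl. Inside their own groups, 5 libraries stood apart by MERVL-int, namely Vehicle replicate 3, siP300 replicate 2, siKat6b replicates 1 and 3 and siComb replicate 2, and the counts of called members are given without them too. The part that any of these library measures played in the results below was not tested.

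The targets of the siRNAs were read in every library first. Ep300, which encodes p300, stood at 16.4, 11.2 and 27.7 CPM in siP300, against 22.7, 23.4 and 28.7 CPM in siControl, and the groups overlapped (edgeR adjusted p = 0.259). Kat6a stood at 13.2, 10.3 and 12.8 CPM in siKat6a, against 18.1, 15.7 and 16.3 CPM in siControl. Kat6b stood at 66.7, 78.6 and 75.4 CPM in siKat6b, against 100.5, 111 and 114 CPM in siControl. Neither of these 2 differences passed the test (log2 fold changes of -0.46 ± 0.20 and -0.56 ± 0.27, SE), although in both the siRNA libraries all lay below the control libraries. In siComb, Kat6a (log2 fold change -0.64 ± 0.20, edgeR adjusted p = 0.022) and Kat6b (-1.03 ± 0.28, adjusted p = 0.00819) fell, while Ep300 did not pass (-0.15 ± 0.29, adjusted p = 0.722).

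Each inhibitor group was compared with Vehicle to ask how the corepressor genes stood when deacetylases or p300 and CBP were inhibited, and the 3 comparisons share the same 3 Vehicle libraries. With SAHA, 4 of 9 members passed the test and all 4 fell (Ncor1, Rcor1, Mta3 and Rest), where 34.2% of all genes tested passed, 14.0% as lower and 20.2% as higher. With TSA, 8 of 9 passed, 7 lower and Sin3b higher, where 58.2% of all genes passed, 26.6% as lower and 31.6% as higher. With A485, 5 of 9 passed, Mta2, Mta3 and Rest lower and Mta1 and Sin3b higher, where 45.5% of all genes passed, 24.2% as lower and 21.4% as higher. Taken in both directions together, the shares for SAHA and A485 were thus near those of all genes. By direction, the SAHA calls were all lower, at 4 of 9 members (44.4%) beside 14.0% of all genes. The libraries did not overlap Vehicle for 7 of 9 members in SAHA, 9 of 9 in TSA and 5 of 9 in A485, beside 54.6%, 68.6% and 52.7% of all genes. The median log2 fold change of the members was -0.57 in SAHA, -1.46 in TSA and -0.40 in A485, beside 0.06, 0.08 and -0.06 over all genes. Without Vehicle replicate 3, the Vehicle library of high MERVL, 4, 7 and 4 members passed. Without A485 replicate 1, 7 members passed with A485.

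**Figure D1:**
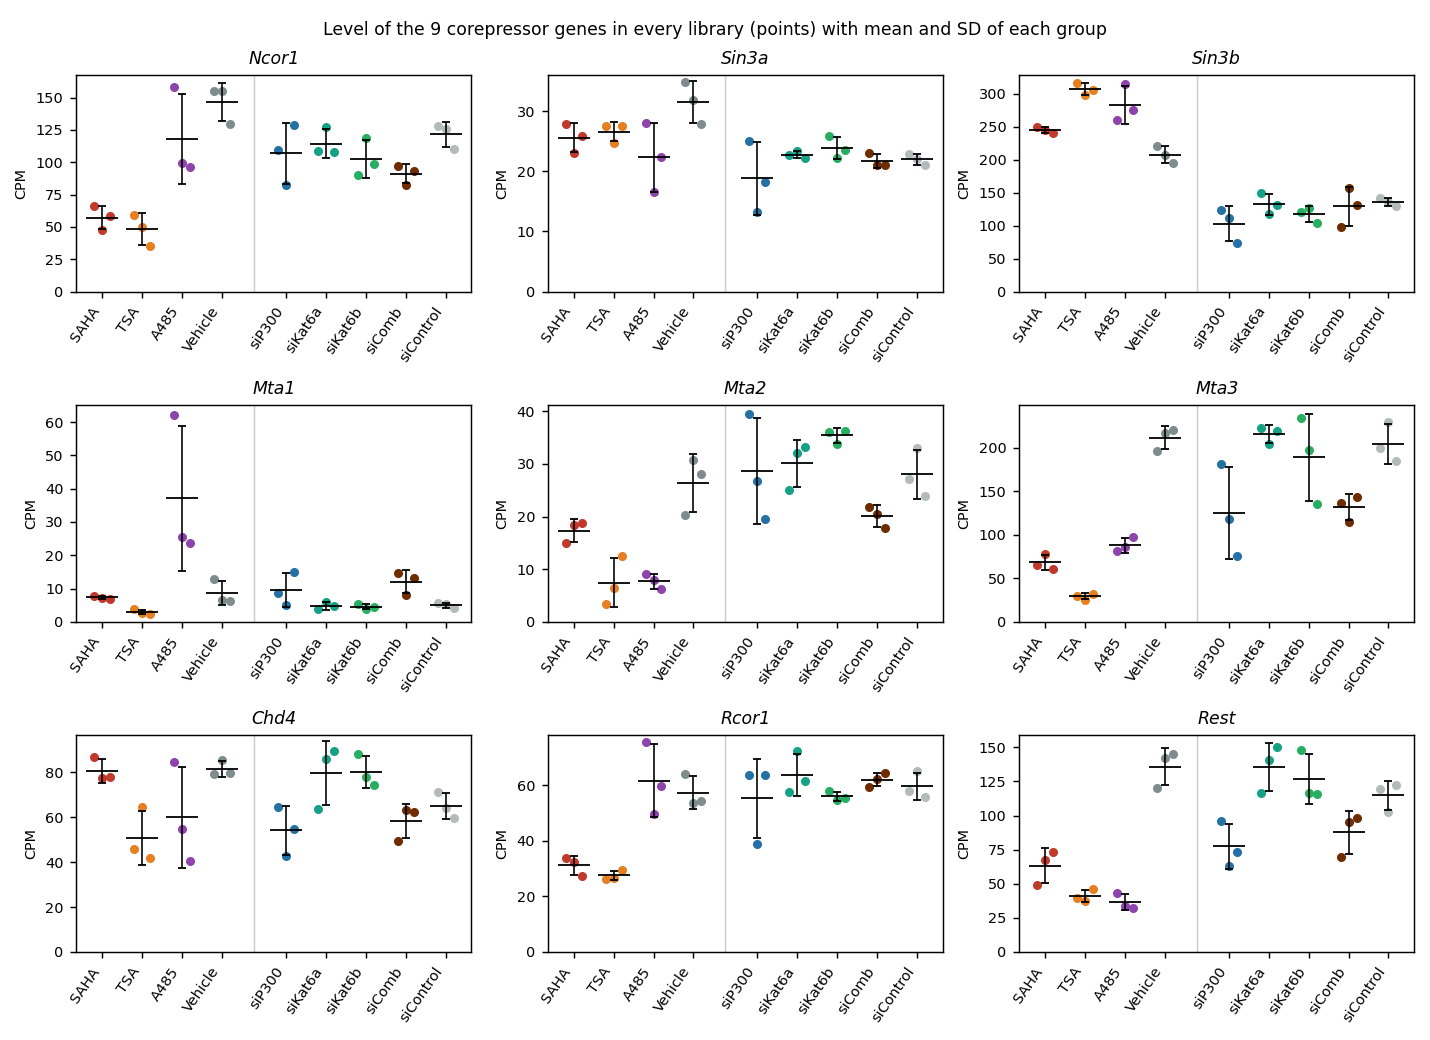
CPM of each of the 9 genes (y axis, from 0) in the 3 libraries of each group (points, replicates 1 to 3 from left to right), with the mean and SD of the group in black; the grey line separates the inhibitor groups from the siRNA groups. Mta3 and Rest lie lower in all libraries of SAHA, TSA and A485 than in Vehicle, and Mta1 lies highest in A485, where replicate 1 reached 62.2 CPM.

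Ncor1 (ENSMUSG00000018501, chromosome 11, 62316426 to 62458541, minus strand, GRCm38) encodes the large scaffold that holds Hdac3 on nuclear receptors. It stood at 65.8, 47.6 and 58.2 CPM in SAHA, 59.4, 50.04 and 34.9 CPM in TSA and 158, 99.6 and 96.0 CPM in A485, against 155, 155 and 129.7 CPM in Vehicle. All SAHA and TSA libraries lay below all Vehicle libraries, while A485 replicate 1 lay above them. Ncor1 fell by 1.32 ± 0.24 on the log2 scale in SAHA (SE, edgeR adjusted p = 0.000701), 2.5-fold lower than Vehicle. It fell by 1.54 ± 0.24 in TSA (edgeR adjusted p = 7.95e-05), 2.92-fold lower. In A485 the change of -0.28 ± 0.23 did not pass (edgeR adjusted p = 0.341). The exons of Ncor1 share 82 bases with Pigl and 1 base with Ttc19, both on the other strand, of 12811 exonic bases.

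The paralogous SIN3 scaffolds differed in level and in what they did. Sin3a (ENSMUSG00000042557, chromosome 9, 57072040 to 57128366, plus strand) stood at 27.8, 23.1 and 25.8 CPM in SAHA, 27.4, 24.7 and 27.5 CPM in TSA and 28.1, 16.5 and 22.3 CPM in A485, against 34.8, 31.8 and 27.9 CPM in Vehicle. The SAHA and TSA libraries all lay just below the lowest Vehicle library, and those of A485 reached into its range. None of the 3 differences passed the test, with log2 fold changes of -0.26 ± 0.21, -0.18 ± 0.22 and -0.46 ± 0.21 in SAHA, TSA and A485 (edgeR adjusted p = 0.366, 0.494 and 0.0937). Without A485 replicate 1 the last was -0.59 ± 0.20 and passed (edgeR adjusted p = 0.0343). Sin3a shares 205 of its 5385 exonic bases with Man2c1os on the other strand.

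Sin3b (ENSMUSG00000031622, chromosome 8, 72723285 to 72758201, plus strand) was the member that rose with a deacetylase inhibitor. It stood at 250.4, 245 and 241 CPM in SAHA, 317, 299 and 306 CPM in TSA and 259.8, 315 and 275 CPM in A485, against 221, 208 and 194 CPM in Vehicle. Every library of the 3 inhibitor groups lay above every Vehicle library. Sin3b rose by 0.63 ± 0.13 on the log2 scale in TSA (edgeR adjusted p = 0.000774) and by 0.48 ± 0.13 in A485 (edgeR adjusted p = 0.00693). In SAHA the difference of 0.28 ± 0.13 did not pass (edgeR adjusted p = 0.105). The A485 call was lost without Vehicle replicate 3 (edgeR adjusted p = 0.053). Per kb of exon, Sin3b made up 87.6 ± 0.945% of the summed Sin3a and Sin3b level in SAHA, 89.4 ± 0.395% in TSA and 90.2 ± 3.09% in A485, against 82.9 ± 0.674% in Vehicle (SD, n = 3 each).

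The MTA proteins are the subunits that tie the deacetylases into NuRD, and a NuRD particle uses one or another of the 3 paralogues. Mta3 (ENSMUSG00000055817, chromosome 17, 83706163 to 83821516, plus strand) was the main one in every group by level per length. It stood at 65.7, 77.9 and 60.6 CPM in SAHA, 29.6, 25.6 and 32.5 CPM in TSA and 80.7, 85.6 and 96.8 CPM in A485, against 196, 217 and 220.5 CPM in Vehicle. Even the highest inhibitor library, A485 replicate 3, lay far below the lowest Vehicle library. Mta3 fell by 1.59 ± 0.16 on the log2 scale in SAHA (edgeR adjusted p = 5.24e-06), by 2.79 ± 0.17 in TSA (adjusted p = 2.24e-08) and by 1.24 ± 0.16 in A485 (adjusted p = 2.08e-05). These are levels 3.02-fold, 6.91-fold and 2.35-fold lower than in Vehicle. The fall in TSA was the steepest fold change of any member in any comparison run here, and only 3.23% of all genes tested with TSA had a lower fold change.

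Mta1 (ENSMUSG00000021144, chromosome 12, 113098278 to 113137206, plus strand), the founding member of the family, moved in opposite directions with A485 and TSA. It stood at 7.81, 7.23 and 6.89 CPM in SAHA, 3.74, 2.78 and 2.45 CPM in TSA and 62.2, 25.4 and 23.5 CPM in A485, against 12.8, 6.60 and 6.39 CPM in Vehicle. All A485 libraries lay above and all TSA libraries below the Vehicle libraries, and replicate 1 was the highest in both A485 and Vehicle. The TSA values rest on 26, 20 and 18 counts, all even, as were 83.3 to 85.9% of nonzero counts per library. How read pairs were counted is not given, so the number of fragments behind these values is not known. Mta1 rose by 2.14 ± 0.39 on the log2 scale in A485 (edgeR adjusted p = 0.000508), 4.42-fold over Vehicle, and by 1.62 ± 0.32 without A485 replicate 1 (adjusted p = 0.00146). It fell by 1.46 ± 0.43 in TSA (edgeR adjusted p = 0.0094), a call lost without Vehicle replicate 1 (-1.06 ± 0.43, adjusted p = 0.0534). In SAHA the difference of -0.20 ± 0.39 did not pass (edgeR adjusted p = 0.729). The SAHA and TSA values stand side by side at different doses and were not tested against each other.

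Mta2 (ENSMUSG00000071646, chromosome 19, 8941875 to 8952303, plus strand) stood at 14.9, 18.4 and 18.8 CPM in SAHA, 3.45, 6.39 and 12.5 CPM in TSA and 9.08, 7.87 and 6.16 CPM in A485, against 20.3, 30.8 and 28.0 CPM in Vehicle. No inhibitor library reached the Vehicle libraries, and the TSA libraries were the most spread. Mta2 fell by 1.75 ± 0.37 on the log2 scale in TSA (edgeR adjusted p = 0.00107) and by 1.74 ± 0.36 in A485 (adjusted p = 0.0014), and the difference of -0.56 ± 0.35 in SAHA did not pass (adjusted p = 0.234). With A485, the genes whose promoters are printed above thus moved apart, Mta1 up and Mta2 down.

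As counts per kb of exon with all genes scaled to the same sum in every library, the 3 MTA genes stood at 38.6 ± 6.08 in SAHA, 15.2 ± 2.51 in TSA and 63.4 ± 15.6 in A485, against 102 ± 4.47 in Vehicle (SD, n = 3 each). Mta3 made up 65.9 ± 2.93% of that sum in SAHA, 66.9 ± 5.95% in TSA and 56.2 ± 13.8% in A485, against 81.2 ± 1.06% in Vehicle. Mta1 made up 12.2 ± 1.38% in SAHA, 12 ± 3.94% in TSA and 37.5 ± 14.0% in A485, against 5.76 ± 2.79% in Vehicle. Mta2 made up 21.9 ± 2.91% in SAHA, 21.1 ± 9.86% in TSA and 6.26 ± 0.957% in A485, against 13.1 ± 2.12% in Vehicle. In A485 replicate 1, Mta1 reached 53.5% and exceeded Mta3 at 40.5%, and in the other A485 libraries Mta3 led at 61.4 and 66.7%.

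**Figure D2:**
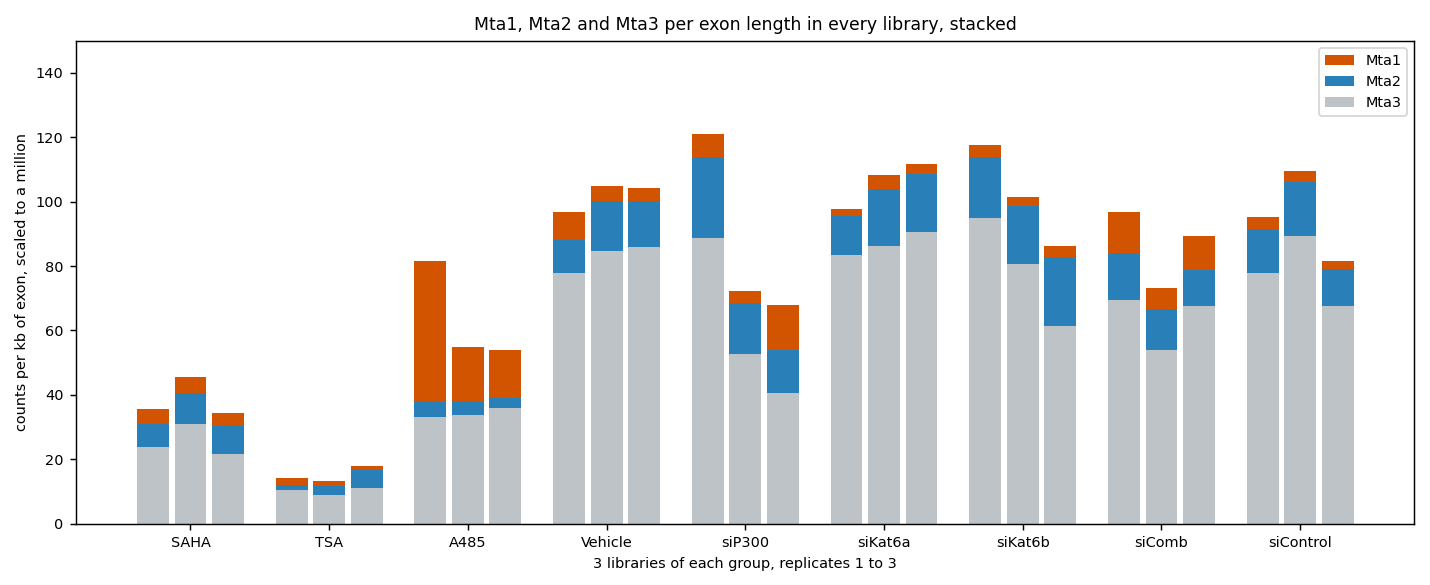
Counts per kb of exon, scaled to the same sum in every library (y axis), of Mta3, Mta2 and Mta1 stacked in each of the 3 libraries of the 9 groups (x axis). The TSA bars are the lowest, at 13.3 to 18 in sum, and the orange Mta1 segment is widest in A485.

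Chd4 (ENSMUSG00000063870, chromosome 6, 125095981 to 125130591, plus strand), the ATP-dependent remodeller of NuRD, stood at 86.7, 77.4 and 77.7 CPM in SAHA, 46.0, 64.5 and 41.7 CPM in TSA and 84.6, 54.7 and 40.4 CPM in A485, against 79.0, 85.4 and 79.5 CPM in Vehicle. The SAHA libraries overlapped Vehicle, those of TSA lay below it, and those of A485 ran from within the Vehicle range to well below it. Chd4 fell by 0.62 ± 0.24 on the log2 scale in TSA (edgeR adjusted p = 0.0403), but the call was lost in 9 of 18 other settings, among them the leaving out of any 1 Vehicle library. In SAHA (0.03 ± 0.24, edgeR adjusted p = 0.946) and A485 (-0.40 ± 0.24, adjusted p = 0.184) it did not pass, and without A485 replicate 1 the A485 value was -0.66 ± 0.21 and passed (adjusted p = 0.0203).

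Rcor1 (ENSMUSG00000037896, chromosome 12, 111039351 to 111115901, plus strand) encodes CoREST itself, the bridge between Kdm1a, the deacetylases and REST. It stood at 33.9, 32.2 and 27.3 CPM in SAHA, 26.4, 26.7 and 29.6 CPM in TSA and 75.7, 49.6 and 59.8 CPM in A485, against 64.2, 53.6 and 54.2 CPM in Vehicle. The SAHA and TSA libraries lay below Vehicle and those of A485 overlapped it. Rcor1 fell by 0.84 ± 0.19 on the log2 scale in SAHA (edgeR adjusted p = 0.00384) and by 0.99 ± 0.19 in TSA (adjusted p = 0.000557), and the A485 difference of 0.14 ± 0.19 did not pass (adjusted p = 0.572). Rcor1 shares 53 of 5684 exonic bases with the gene model Gm48632 on the same strand.

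Rest (ENSMUSG00000029249, chromosome 5, 77265491 to 77286432, plus strand), the DNA-binding repressor, stood at 48.8, 67.6 and 73.2 CPM in SAHA, 39.4, 37.4 and 46.4 CPM in TSA and 43.1, 33.6 and 32.5 CPM in A485, against 120.2, 142 and 145 CPM in Vehicle. All inhibitor libraries lay below all Vehicle libraries. Rest fell by 1.07 ± 0.19 on the log2 scale in SAHA (edgeR adjusted p = 0.000695), by 1.66 ± 0.19 in TSA (adjusted p = 6.78e-06) and by 1.86 ± 0.19 in A485 (adjusted p = 3.74e-06), or 2.09-fold, 3.16-fold and 3.64-fold lower than in Vehicle. Rest and Mta3 were the 2 members called in the same direction with all 3 inhibitors, and both calls held in each of the 18 other settings run for each comparison. In pools of whole embryos, fewer cells of one kind and less RNA per cell cannot be told apart.

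**Figure D3:**
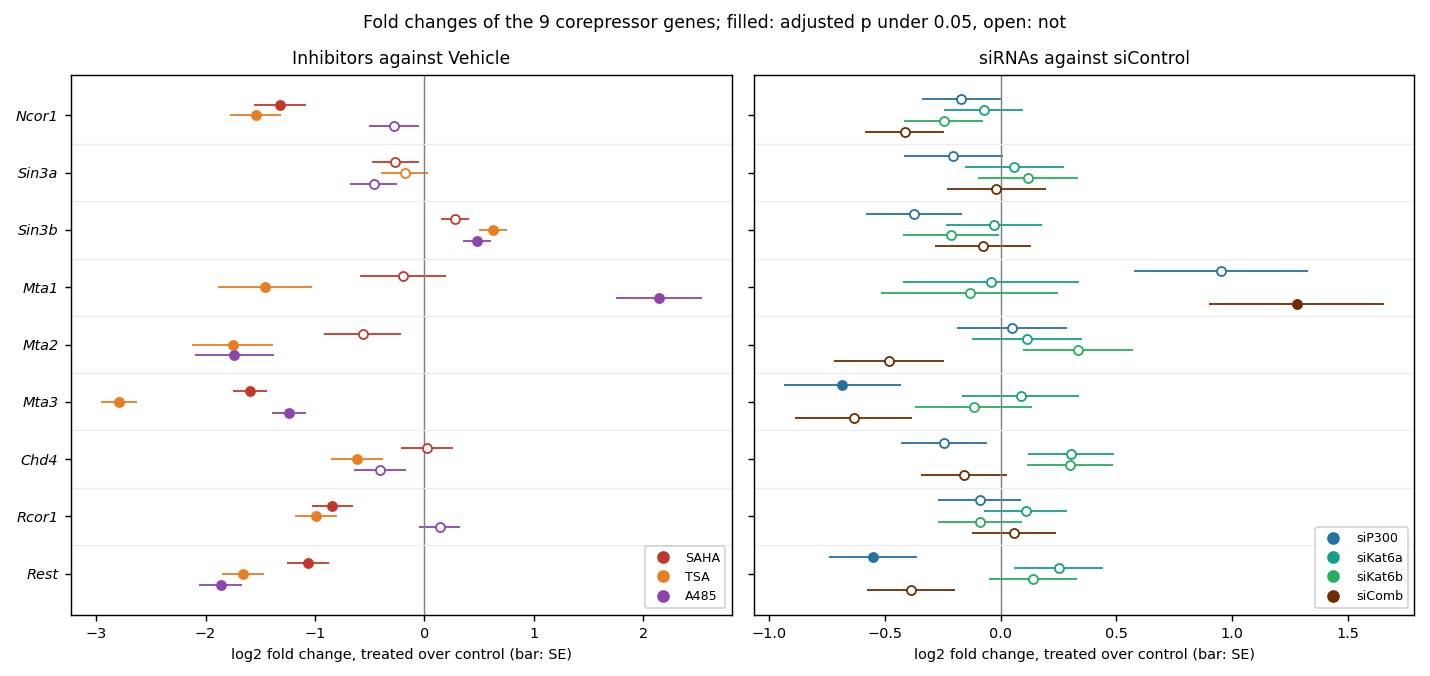
Log2 fold change over the control (x axis, with SE; the axes of the panels differ) of each gene with the inhibitors (left) and the siRNAs (right); filled points passed at an adjusted p under 0.05. With the inhibitors, 17 of 27 points passed, where 34.2% (SAHA), 58.2% (TSA) and 45.5% (A485) of all genes passed. With the siRNAs, 3 of 36 passed, where 35.4% (siP300), 0.0% (siKat6a), 0.0209% (siKat6b) and 36.7% (siComb) of all genes did.

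The single siRNA groups and siComb were compared with siControl to ask how the same genes stood in embryos injected against the acetyltransferases, and these 4 comparisons share the 3 siControl libraries. With siP300, 2 of 9 members passed and both fell, where 35.4% of all genes tested passed, 15.7% as lower and 19.7% as higher. With siComb, 1 of 9 passed, Mta1, which rose, where 36.7% of all genes passed, 19.6% as higher and 17.1% as lower. The libraries did not overlap siControl for 3 of 9 members in siP300 and 5 of 9 in siComb, beside 48.4% and 51.5% of all genes. With siKat6a (0 of all 19182 genes, 0.0%) and siKat6b (4 genes, 0.0209%, with 0.0104% in either direction) no member passed. At an unadjusted p under 0.05, 410 genes passed with siKat6a and 2004 with siKat6b, and DESeq2 called 2 and 237 genes. The median log2 fold change of the members was -0.20 in siP300 and -0.16 in siComb, beside 0.13 and 0.09 over all genes. Scaled by library size alone, the all-gene medians moved to 0.45 and 0.36, so the directions below are relative to the bulk of genes. Under that scaling 77.0% of the siP300 calls and 70.4% of the siComb calls over all genes were higher, instead of 55.8% and 53.5%.

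Mta3 stood at 181, 118 and 76.0 CPM in siP300 and 136, 115 and 144 CPM in siComb, against 199, 229 and 184 CPM in siControl. Both siRNA groups lay below siControl, by little in siP300 replicate 1. Mta3 fell by 0.68 ± 0.25 on the log2 scale in siP300 (edgeR adjusted p = 0.0448), and in siComb the difference of -0.63 ± 0.25 did not pass (adjusted p = 0.0586). The siComb difference passed with the DESeq2 test (adjusted p = 0.0463), limma-voom (0.0246), no filter (0.0161), just the 2 groups (0.00587) and all 27 libraries in 1 fit (0.0272). Rest stood at 95.7, 63.1 and 73.1 CPM in siP300 and 69.6, 95.3 and 98.3 CPM in siComb, against 119, 103 and 122 CPM in siControl, with no overlap. Rest fell by 0.55 ± 0.19 in siP300 (edgeR adjusted p = 0.034) and did not pass in siComb (-0.39 ± 0.19, adjusted p = 0.122). Neither gene passed without siControl replicate 1 (Mta3 -0.71, Rest -0.53), without siControl replicate 3 (-0.76 and -0.51) or without siP300 replicate 3 (-0.41 and -0.49), so without a control library the folds stayed near those of all libraries. Scaled by library size alone, both were lost too (-0.39 ± 0.23 for Mta3 and -0.23 ± 0.19 for Rest, edgeR adjusted p = 0.2 and 0.363). Without siP300 replicate 2, the library of high MERVL, Rest was at -0.42 ± 0.20 (edgeR adjusted p = 0.115) and Mta3 at -0.64 ± 0.28 (adjusted p = 0.0899). Without all 5 libraries of high MERVL, 1 member rose (Mta1) and 1 fell (Mta3) with siP300, and 1 rose with siComb.

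Mta1 stood at 8.60, 4.93 and 15.1 CPM in siP300 and 14.7, 8.14 and 13.3 CPM in siComb, against 5.50, 5.36 and 4.01 CPM in siControl. The siComb libraries all lay above siControl, and siP300 replicate 2 lay within it. Mta1 rose by 1.28 ± 0.38 on the log2 scale in siComb (edgeR adjusted p = 0.0143), 2.43-fold over siControl, a call lost without siControl replicate 3 (adjusted p = 0.0643) or siComb replicate 1 (adjusted p = 0.0589). In siP300 the difference of 0.95 ± 0.38 did not pass (edgeR adjusted p = 0.0578), and without siP300 replicate 2 it was 1.28 ± 0.36 and passed (adjusted p = 0.0127). It also passed with library size alone (adjusted p = 0.0194), the DESeq2 test (0.0382), limma-voom (0.0417), the filter of 5 CPM (0.0394) and halved counts (0.0433). Mta1 made up 11.4 ± 2.23% of the MTA level per length in siComb and 10.5 ± 8.49% in siP300, against 3.41 ± 0.408% in siControl. In siKat6a (3.71, 5.99 and 4.62 CPM) and siKat6b (5.31, 3.89 and 4.35 CPM) it stayed within or next to the siControl libraries.

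The other members were not called in any siRNA group against siControl. Mta2 stood at 39.4, 26.8 and 19.5 CPM in siP300, 36.1, 33.9 and 36.3 CPM in siKat6b and 21.9, 20.5 and 17.8 CPM in siComb, against 27.2, 33.1 and 23.9 CPM in siControl. The siKat6b libraries lay above and the siComb libraries below siControl without passing (edgeR adjusted p = 0.694 and 0.124). Ncor1 stood at 97.4, 82.7 and 93.2 CPM in siComb, against 128, 126 and 110.4 CPM in siControl, a difference of -0.41 ± 0.17 that did not pass (edgeR adjusted p = 0.0665). Chd4 was at 80.0 ± 7.23 CPM in siKat6b and 79.7 ± 14.1 CPM in siKat6a, against 65.0 ± 5.86 CPM in siControl (SD, n = 3 each; edgeR adjusted p = 0.628 and 1.00). Sin3a, Sin3b and Rcor1 had log2 fold changes between -0.37 and 0.12 in the 4 comparisons, and Sin3b in siP300 (124, 111 and 73.8 CPM, against 143, 136 and 129.6 CPM in siControl) was the farthest from 0.

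The siComb group was also set against each single injection. Against siP300, 0 of 9 members passed, where 0.787% of all genes did (151 of 19182, 0.511% as higher and 0.276% as lower), and 2598 genes had an unadjusted p under 0.05. Against siKat6a, 3 passed (36.0% of all genes, 19.2% as higher and 16.8% as lower): Mta1 rose by 1.32 ± 0.38 on the log2 scale (edgeR adjusted p = 0.0123), and Mta3 fell by 0.72 ± 0.25 (adjusted p = 0.0346) and Rest by 0.64 ± 0.19 (adjusted p = 0.0158). Against siKat6b, 3 passed (31.5% of all genes, 16.4% as higher and 15.1% as lower): Mta1 rose by 1.41 ± 0.38 (edgeR adjusted p = 0.00937), and Mta2 fell by 0.82 ± 0.24 (adjusted p = 0.0152) and Rest by 0.53 ± 0.19 (adjusted p = 0.0446). The 3 comparisons share the siComb libraries. The call of Rest against siKat6b was kept in 7 of 18 other settings and that of Mta3 against siKat6a in 11 of 18. No member passed against siKat6a without siComb replicate 1, and 1 passed without siKat6a replicate 2 or without siKat6a replicate 3. Without the libraries of high MERVL, which leaves siKat6b a single library taken to vary like the other groups, 1 member (Mta1) passed against siKat6b, 2 (Mta1 and Rest) against siKat6a and 0 against siP300.

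Between the control groups, 1 member passed the test. Sin3b was at 143, 136 and 129.6 CPM in siControl, against 221, 208 and 194 CPM in Vehicle, and was lower by 0.61 ± 0.17 on the log2 scale (edgeR adjusted p = 0.0145), where 17.7% of all genes passed, 9.39% as lower and 8.31% as higher. The call of Sin3b was lost without Vehicle replicate 1 or siControl replicate 3. Sin3a passed with limma-voom (-0.51 ± 0.15, adjusted p = 0.00971) and with just the 2 groups compared (-0.50 ± 0.16, edgeR adjusted p = 0.0249). The libraries of the control groups did not overlap for 5 of 9 members, beside 41.2% of all genes. Injection, time in culture and any difference in preparation cannot be told apart in that comparison, so levels across the 2 families are read with it.

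Over all 9 groups, the mean level of Mta1 ran over a 12.4-fold range from TSA to A485, that of Mta3 over 7.37-fold, Mta2 4.75-fold, Rest 3.73-fold, Ncor1 3.05-fold, Sin3b 2.98-fold, Rcor1 2.31-fold, Sin3a 1.68-fold and Chd4 1.60-fold. TSA was the lowest group for Ncor1, Rcor1, Mta1, Mta2, Mta3 and Chd4, A485 for Rest, and siP300 for Sin3a and Sin3b. Scaled by library size alone, siControl was lowest for Sin3a (21.1 CPM, with siP300 at 23.0 CPM). On that scale siKat6b was lowest for Sin3b (120.7 CPM, with siP300 at 124.6 CPM). For Mta3 the groups stood in the order TSA, SAHA, A485, siP300, siComb, siKat6b, siControl, Vehicle and siKat6a, from 29.2 ± 3.45 CPM to 215 ± 10.2 CPM (SD, n = 3). The libraries of neighbouring groups overlapped from A485 upwards, and TSA, SAHA and A485 were apart. For Rest the order was A485, TSA, SAHA, siP300, siComb, siControl, siKat6b, siKat6a and Vehicle, from 36.4 ± 5.84 to 136 ± 13.7 CPM, with gaps between neighbours just at TSA to SAHA and siComb to siControl. For Ncor1 and Rcor1, SAHA and TSA overlapped each other and stood apart below the remaining 7 groups. For Sin3b, the 4 groups of the inhibitor family stood above the 5 siRNA groups, which overlapped from neighbour to neighbour. For Chd4 all 8 neighbouring pairs overlapped, and for Sin3a 7 of 8 did, with Vehicle at the top and apart from TSA. For Sin3a, A485 replicate 1 (28.1 CPM) still lay above Vehicle replicate 3 (27.9 CPM).

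Per kb of exon, the level order of the genes also changed. In Vehicle, Mta3 led at 82.8 ± 4.44, followed by Sin3b at 58.9 ± 4.26 and Rest at 39.2 ± 3.62, and Mta1 was last at 5.80 ± 2.52 (SD, n = 3). In SAHA, TSA and A485, Sin3b led at 66.2 ± 4.36, 76.6 ± 3.07 and 80.2 ± 8.49 on the same scale. Mta1 was last in 8 of the 9 groups and ranked 3 in A485 at 25.2 ± 15.9. With lengths of the longest transcript in place of all exons, Sin3b still led in the inhibitor groups and Mta3 in Vehicle, but in siComb Mta1 stood just above Sin3a (8.75 and 8.51) and was last in 7 groups.

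Of all named genes with a mean of at least 10 CPM, some of the 3 most like each member over the 27 libraries are given by Pearson correlation of log2(CPM + 1), as a description. The points share libraries and their depth, so no p is given. For Rest these included Bok (r = 0.949) and Tet2 (0.947). Mta3 was most like Mindy1 (0.954), Arhgdig (0.954) and Trip13 (0.952), and Mta1 most like Nisch (0.918), Ddx50 (0.909) and Slc30a9 (0.897). Rcor1 was most like Arid1b (0.949), Sin3b most like Rnaseh2a (0.948) and Mta2 most like Gpr137b (0.938). Within the 12 libraries of the inhibitor groups and the 15 of the siRNA groups, Sin3b and Rnaseh2a stood at 0.735 and 0.636. The pooled value of that pair thus rests in part on differences between the families. Mta2 and Gpr137b stood at 0.948 among the inhibitor groups and at 0.561 among the siRNA groups, where they were less alike. The highest values for Sin3a (Elac2, 0.816) and Chd4 (Anapc2, 0.836) were lower. Among the members, Mta2 and Rest (0.876), Ncor1 and Rcor1 (0.859) and Mta3 and Rest (0.834) were the most alike, and Sin3b and Mta2 (-0.743) ran most opposite.

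The other subunits of the 4 complexes were taken from a list of 43 genes, 4 of them in more than 1 complex, of which 40 were tested. Brms1, Sap25 and Gse1 were listed at 0 in all 27 libraries. With SAHA 8 rose and 11 fell, with TSA 13 rose and 12 fell, and with A485 12 rose and 7 fell. That is 47.5%, 62.5% and 47.5% of those tested, beside 34.2%, 58.2% and 45.5% of all genes. Of all genes, 20.2%, 31.6% and 21.4% passed as higher and 14.0%, 26.6% and 24.2% as lower. The SAHA share was thus above that of all genes, with 11 of 40 lower. The median log2 fold changes of the 40 subunits were -0.01, 0.03 and 0.04, beside 0.06, 0.08 and -0.06 over all genes. With siP300 9 rose and 7 fell, with siComb 9 rose and 6 fell, which is 40% and 37.5% of those tested, near the 35.4% and 36.7% of all genes. With siKat6a and siKat6b none passed.

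**Figure D4:**
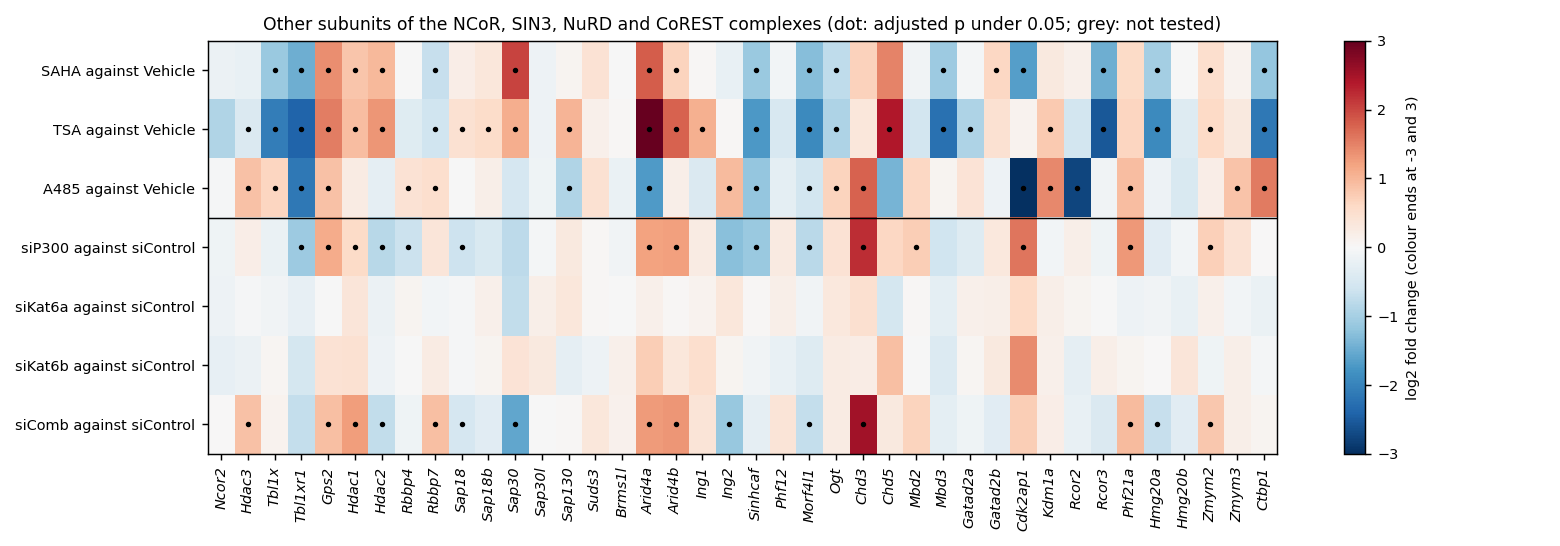
Log2 fold change (colour, ending at -3 and 3) of the 40 other subunits tested (columns) in 7 comparisons (rows); dots mark an adjusted p under 0.05. The siKat6a and siKat6b rows hold no dot, and the Tbl1xr1 column is blue with a dot in the SAHA, TSA, A485 and siP300 rows.

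Hdac1 and Hdac2, the deacetylases that SIN3, NuRD and CoREST carry, rose with SAHA and TSA. Hdac1 stood at 513 ± 29.6 CPM in SAHA and 536 ± 32.8 CPM in TSA, against 295 ± 32.7 CPM in Vehicle (SD, n = 3 each), and rose by 0.83 ± 0.14 and 0.92 ± 0.14 on the log2 scale (edgeR adjusted p = 0.000369 and 5.61e-05). Hdac2 stood at 126 ± 5.96 CPM in SAHA and 158 ± 28.7 CPM in TSA, against 65.8 ± 4.39 CPM in Vehicle, and rose by 0.98 ± 0.18 and 1.33 ± 0.18 (edgeR adjusted p = 0.000813 and 2.48e-05). In the siRNA family Hdac1 and Hdac2 moved apart. Hdac1 rose by 1.26 ± 0.21 in siComb (edgeR adjusted p = 0.000248) and by 0.57 ± 0.21 in siP300 (adjusted p = 0.0435), and Hdac2 fell by 0.73 ± 0.17 in siComb (adjusted p = 0.00331) and by 0.82 ± 0.17 in siP300 (adjusted p = 0.00162). Hdac3, the enzyme of the NCoR complex, stood at 91.7, 111 and 118 CPM in A485, against 57.6, 62.4 and 58.8 CPM in Vehicle, and rose by 0.87 ± 0.16 (edgeR adjusted p = 0.000528). It rose by 0.87 ± 0.24 in siComb as well (edgeR adjusted p = 0.0102) and fell by 0.42 ± 0.16 in TSA (adjusted p = 0.0366).

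In the NCoR complex, the WD40 repeat protein gene Tbl1xr1 fell with each inhibitor, to 26.8 ± 2.00 CPM in SAHA, 13.7 ± 2.33 CPM in TSA and 16.7 ± 2.02 CPM in A485, against 75.8 ± 5.84 CPM in Vehicle (log2 fold changes -1.46 ± 0.19, -2.41 ± 0.20 and -2.15 ± 0.19). Gps2, a small subunit that binds the scaffold, rose with each, to 78.5 ± 8.07 CPM in SAHA, 84.2 ± 13.0 CPM in TSA and 55.1 ± 14.7 CPM in A485, against 30.5 ± 8.30 CPM in Vehicle. In the SIN3 complex Arid4a went both ways, to 155 ± 50.6 CPM in SAHA, 383 ± 57.9 CPM in TSA and 13.5 ± 3.03 CPM in A485, against 44.7 ± 7.02 CPM in Vehicle. The TSA libraries (449, 356 and 343 CPM) lay far above and the A485 libraries (12.2, 11.4 and 17 CPM) below those of Vehicle (42.4, 39.2 and 52.6 CPM). In NuRD, the methyl-CpG protein gene Mbd3 fell by 2.25 ± 0.36 in TSA (edgeR adjusted p = 0.000105). Chd3, the paralogue of Chd4, rose in A485 (6.34 ± 3.08 CPM, against 1.92 ± 0.37 CPM in Vehicle; edgeR adjusted p = 0.0116) and in siP300 and siComb (7.88 ± 1.51 and 9.90 ± 3.54 CPM, against 1.72 ± 0.43 CPM in siControl; adjusted p = 0.00244 and 0.000829). In CoREST, Kdm1a rose by 1.44 ± 0.20 in A485 (92.3, 55.7 and 73.0 CPM, against 27.7, 27.2 and 28.6 CPM in Vehicle; edgeR adjusted p = 5.63e-05), while the corepressor gene Ctbp1 fell by 2.14 ± 0.29 in TSA and rose by 1.56 ± 0.26 in A485.

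Neuronal genes known as REST targets, 22 in all, were read because Rest fell with each inhibitor. Tubb3 was listed at 0 in all libraries, and the filter on low counts left 14 of them among the inhibitor groups and 18 among the siRNA groups. A gene can pass that filter through the 1 group in which it is high, so the counts describe these genes and no more. With SAHA 3 rose and 2 fell, with TSA 7 rose and 1 fell, and with A485 2 rose and 3 fell. That is 35.7%, 57.1% and 35.7% of the 14 tested, beside 34.2%, 58.2% and 45.5% of all genes. By direction, 20.2%, 31.6% and 21.4% of all genes passed as higher and 14.0%, 26.6% and 24.2% as lower. Nefm, a neurofilament gene, stood at 4.64, 4.88 and 6.18 CPM in SAHA and 16.1, 10.8 and 21.3 CPM in TSA, against 0.407, 0.8 and 0.426 CPM in Vehicle, and all libraries of both lay above Vehicle. Stmn3 and Chga, which are targets too, fell in A485. Stmn3 stood at 17, 14 and 16.1 CPM there, against 41.1, 90.2 and 54.8 CPM in Vehicle. Chga stood at 0.673, 0.197 and 0.374 CPM, against 13.2, 12.8 and 6.60 CPM in Vehicle. In SAHA, Stmn3 and Chga fell as well (log2 fold changes -1.03 ± 0.35 and -1.16 ± 0.375, SE), and Stmn3 fell in TSA (-1.15 ± 0.35). With siP300 9 rose and 1 fell, and with siComb 8 rose and 1 fell. That is 55.6% and 50% of the 18 tested, beside 35.4% and 36.7% of all genes. By direction, 19.7% and 19.6% of all genes passed as higher and 15.7% and 17.1% as lower. Syn1, a synaptic vesicle gene, stood at 27.3, 29.0 and 30.3 CPM in siP300 and 31.9, 25.4 and 24.8 CPM in siComb. In siControl it stood at 8.46, 13.1 and 11.5 CPM, with no overlap. Syn1 rose in A485 against Vehicle too (1.63 ± 0.27). The target that fell was Stmn3 in siP300 (-0.59 ± 0.21) and Chga in siComb (-2.46 ± 0.41). Of the 22 targets, 3 are also in the list of 6 neuron markers, whose summed level was 20.1 to 43.9 CPM in siP300 and 16.2 to 19.6 CPM in siComb, against 2.37 to 5.61 CPM in siControl, and 3.84 to 7.42 CPM in SAHA, 15.7 to 24.9 CPM in TSA and 5.07 to 5.55 CPM in A485, against 1.91 to 3.39 CPM in Vehicle. What these neuron markers or the change in Rest had to do with the targets was not tested.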

How the data were processed

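Raw gene counts were deposited by the authors. Of the tools behind them, the submitters' processing notes list STAR (2.7.11a), featureCounts and Subread (2.0.6), and both mm10 and GRCh38 as builds. Not given in the sources used here are the annotation release, whether counting was stranded and how pairs were treated. Of the nonzero counts, 83.3 to 85.9% per library were even. PolyA RNA was amplified by limited PCR, per the labels' protocols, which name no molecular identifiers. The series-wide table matched the sample files in 27 of 27 libraries.

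The members and all lists were chosen with earlier results of these data known. Groups come from the sample titles, and the series' design text calls the replicates biological, so p-values measure the spread between these pools. Genes were tested with edgeR 4.0.16 (R 4.3.3), quasi-likelihood, two-sided, TMM scaling and filterByExpr with a minimum count of 10. One fit served the 12 inhibitor libraries, one the 15 siRNA libraries, and siControl was compared with Vehicle in a fit of all 27. P values were adjusted by Benjamini-Hochberg over all 18299, 19182 or 20685 genes tested, with a threshold of 0.05, and called genes are those under it. SE of a log2 fold change is its size divided by the square root of F. The CPM values printed are scaled by TMM over all 27 libraries. Levels per length use exon unions of GENCODE vM21 (GRCm38), found for 96.4% of symbols. The test was run on simulated counts with known changes. The genes named are all members, the siRNA targets, shared enzymes, and up to 2 rising and 2 falling genes of each list by adjusted p. Alternatives were other scalings (DESeq2 1.42.0 size factors, library size alone), the DESeq2 test, weighted limma-voom (limma 3.58.1), dropping the filter or asking for 5 CPM in 3 libraries, a replicate block, other sets of groups in the fit, halved counts, the sample files and leaving out each library. A fit without the 5 libraries of high MERVL was chosen after seeing the data. Python 3.11.15 and matplotlib 3.10.9 drew the figures. Some genes that the rule on likeness names are not reported here.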

Additional observations from a re-analysis of the deposited data

How the results depend on the processing

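With SAHA, TSA and A485, member counts stayed within 1.5 times of those reported in all alternatives run, at 4 to 5, 6 to 8 and 4 to 7 members, and no called member changed direction in any comparison. Of the settings of called members, 72 of 72 with SAHA, 134 of 144 with TSA and 88 of 90 with A485 kept the call.

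The siP300 count of 2 falls became 1 with library size alone, where Mta1 rose and neither fall passed, 1 with the replicate block, 0 with just the 2 groups compared and 0 to 2 when a library was left out. It became 3, with Mta1 added, under the DESeq2 test, limma-voom, the filter of 5 CPM and halved counts. The siComb count of 1 became 2 with DESeq2, 3 with limma-voom, 2 with no filter, 3 with just the 2 groups compared and 2 with all 27 libraries in 1 fit, and 0 to 1 when a library was left out. Against siKat6a, siComb called 1 member in place of 3 with library size alone, and 0 to 3 with a library left out. Against siKat6b it called 1 without the libraries of high MERVL, and 2 whichever library was left out. The siControl count against Vehicle was 2 with limma-voom and with just the 2 groups compared, in place of 1, and 0 to 1 with a library left out. The cause was not tested.

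No steady pairing by replicate number was seen: in no comparison did all 3 same-numbered pairs correlate above 0.1. With 3 libraries in a group, this cannot exclude a pairing. The block gave 2 calls against siKat6b in place of 3 and changed no count of members other than this one and siP300.

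Over all genes, counts moved by more than 1.5 times in 5 comparisons. With siKat6a, 0 became 2 with DESeq2 and 15 with no filter. With siKat6b, 4 became 1 to 163 with a library left out, 2 with DESeq2 size factors, halved counts or the block, 10 with limma-voom, 29 with all libraries, 60 with just the 2 groups, 237 with DESeq2 and 757 with no filter. For siComb against siP300, 151 became 99 with library size alone, 0 with just the 2 groups, 35 with limma-voom, 48 with the block, 618 with DESeq2, 732 with no filter and 26 at the lowest with a library left out. For siControl against Vehicle, 3661 became 6189 with limma-voom, 5877 with just the 2 groups and 2058 at the lowest with a library left out. Without the libraries of high MERVL, 3573 genes passed for siComb against siKat6b in place of 6051.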
